A study of Homo sapiens with 12 samples.

Results

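Homologous recombination and Fanconi genes were followed in IMR90 ER:RAS cells, as a list of 36 genes. They were chosen by name for what their products do, with earlier results of these data known. They were 36 of the 62069 genes in the deposited count table, and all 36 passed the filter on low counts that left 15284 genes to be tested. IMR90 is a line of human fetal lung fibroblasts, and ER:RAS is a RAS oncoprotein joined to part of the estrogen receptor, which 4-hydroxytamoxifen (4OHT) switches on to bring about oncogene-induced senescence (OIS). The study asked how knockdown of XPO7, a nuclear transport receptor, changes that response, and sequenced mRNA from 12 libraries in 4 groups of 3. The vector group was not induced. The vector/4OHT group was induced, and the shXPO7_3/4OHT and shXPO7_5/4OHT groups were induced and carried 1 of 2 shRNAs against XPO7. The labels give passage 13 and 7 days of culture for every library. They repeat the same treatment text, 100 nM 4OHT and day 5 after induction, for all libraries, which conflicts with the title non-induced of the vector group, and the titles were followed here. The first 2 groups are titled only non-induced and induced, and the name vector is the study's. The labels leave it unsaid if replicate libraries are of separate cultures, and the p-values therefore rest on library-to-library spread that could be technical. The libraries carry letters: vector has T, A and C, and each of the other groups has T, A and B. Values are given in that order.

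Homologous recombination repairs a DNA double-strand break by copying the sister chromatid, and so works in S and G2 phase. Nucleases resect the broken end, BRCA1 and its partners bring BRCA2 to the single strand, and a set of strand exchange factors then helps it to find and invade the intact copy. The Fanconi pathway detects crosslinked strands at stalled forks, attaches ubiquitin to the FANCD2-FANCI pair through a core complex, and hands the lesion on to the same recombination proteins. Many of these genes are known to be transcribed mainly in cycling cells, and E2F factors bind the promoters of many genes of that kind.

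Library totals ran from 28534141 to 60397769 counts, and the lowest count of any of the 36 genes in any library was 22. XPO7 itself averaged 137 ± 8.81 CPM (counts scaled to library size with factors from the trimmed mean of M-values; SD, n = 3) in vector/4OHT, 27.7 ± 1.14 in shXPO7_3/4OHT and 52.2 ± 1.62 in shXPO7_5/4OHT. The 10 fibroblast markers summed to between 27304 and 31610 CPM in the vector libraries and between 20161 and 21636 in the vector/4OHT libraries, and 5 of the 10 were called lower in vector/4OHT, with DCN at -3.37 on the log2 scale. The 5 epithelial markers summed to between 6.22 and 6.86 CPM in vector and between 1.72 and 2.1 in vector/4OHT. CLDN4 and EPCAM, the 2 of them that were tested, were called lower, and KRT5 and KRT14 were at 0 in every library. The 4 endothelial markers summed to 5.27 CPM or less, with PECAM1 and CDH5 at 0 in every library, and the 5 leukocyte markers to 0.219 or less. The part of these markers in the results below was not tested.
The libraries differed within groups by the GC content of the transcripts. Vector T and vector C stood apart in this way, as did shXPO7_3/4OHT T from its other libraries, and shXPO7_5/4OHT A from its other libraries. In vector T the level of the 36 genes relative to the vector mean rose with their transcript GC content (Spearman rho 0.876 over 36 genes, 0.594 over all genes tested), and in vector C it fell with it (-0.885 and -0.654). These genes were AT-rich, with a median transcript GC content of 42.7% against 49.4% over the genes tested, and a range from 36.6% to 65.3%.

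Most of the repair genes were lower in the induced libraries. In vector/4OHT against vector, 25 of the 36 genes fell and 1, TP53BP1, rose at an adjusted p under 0.05 (edgeR quasi-likelihood test with Benjamini-Hochberg adjustment over all 15284 genes). Of all genes tested, 26.1% fell and 24.8% rose by the same rule. The median log2 fold change was -1.25 over the 36 genes and -0.0068 over all genes tested. A fall of at least 1 on the log2 scale was seen in 19 of the 36, against 10.1% of all genes tested. For 25 genes every vector/4OHT library lay below every vector library, and for 2, TP53BP1 and ATM, every one lay above; the background shares were 31.4% and 31.8%. With 3 against 3 libraries the exact two-sided permutation test cannot go below 0.1, the value it gave for each of those 27 genes.

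The fall went with a fall in proliferation markers: 7 of 7 were lower, from PCNA at -0.67 to MKI67 at -3.30 on the log2 scale. MKI67 held between 250 and 280 CPM in the vector libraries and between 25.5 and 30.3 in the vector/4OHT libraries. In bulk RNA, fewer cells in S and G2 phase and less RNA of a gene in each cell cannot be told apart, and the part of the proliferation markers in the repair genes' change was not tested.

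**Figure D1:**
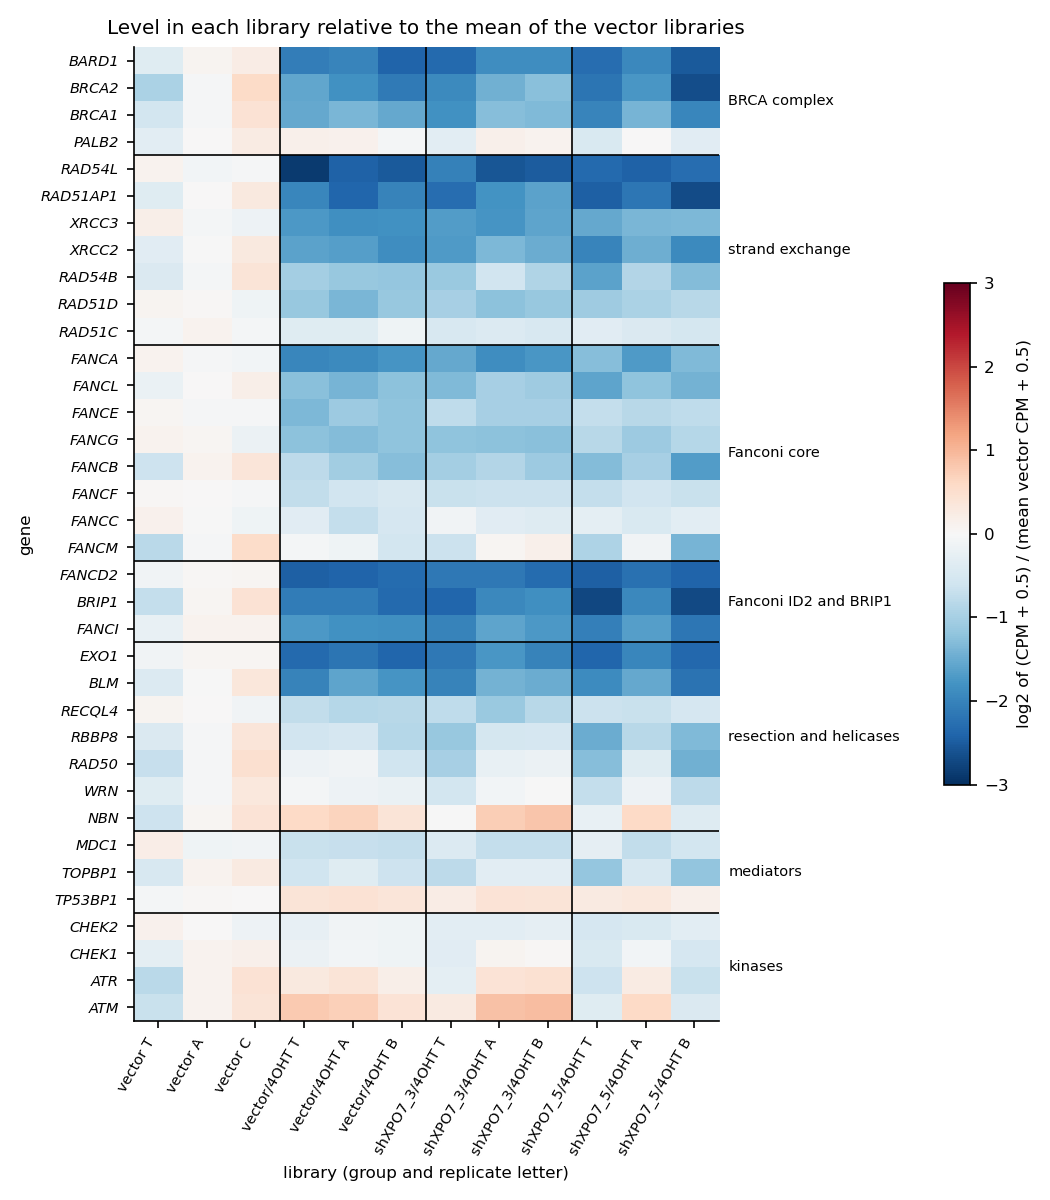
Level of each of the 36 genes (rows, grouped by role) in each of the 12 libraries (columns), as log2 of (CPM + 0.5) over the vector mean + 0.5, where blue is lower and red is higher than the vector mean. The strand exchange rows and the FANCD2, BRIP1 and FANCI rows are blue in all 9 induced libraries, the ATM, ATR and NBN rows are not, and vector T and vector C differ in opposite directions in BRCA2, RAD50 and ATM, among others.

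The promoters of 6 genes that fell by over 1 are shown beside those of genes that did not fall, to set the letters near the starts beside the levels. Each line is the 100 bases (50 on each side) around the first listed transcription start of a gene, from RefSeq on GRCh38.p14. Capitals mark the strings searched here as E2F letters. These were TTCCCGC and also TTGGCGC and also TTCGCGC, on either strand.
RAD54L: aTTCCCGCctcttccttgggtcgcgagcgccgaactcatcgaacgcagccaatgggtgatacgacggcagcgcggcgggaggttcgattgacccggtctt
FANCD2: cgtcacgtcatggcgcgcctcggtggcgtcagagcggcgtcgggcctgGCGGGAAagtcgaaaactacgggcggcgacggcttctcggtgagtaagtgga
EXO1: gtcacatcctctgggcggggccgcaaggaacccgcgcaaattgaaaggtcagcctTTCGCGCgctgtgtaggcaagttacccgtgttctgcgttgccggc
BARD1: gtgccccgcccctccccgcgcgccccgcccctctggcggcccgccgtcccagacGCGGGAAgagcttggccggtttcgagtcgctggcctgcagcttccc
BRIP1: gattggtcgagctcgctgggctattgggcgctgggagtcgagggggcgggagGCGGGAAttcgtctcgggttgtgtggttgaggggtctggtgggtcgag
XRCC3: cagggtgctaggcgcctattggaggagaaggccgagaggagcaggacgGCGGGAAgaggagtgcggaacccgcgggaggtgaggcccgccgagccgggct
The positions are chr1:46247638-46247737 for RAD54L, chr3:10026387-10026486 for FANCD2, chr1:241848154-241848253 for EXO1, chr2:214809634-214809733 for BARD1, chr17:61863479-61863578 for BRIP1 and chr14:103715402-103715501 for XRCC3. RAD54L, FANCD2 and EXO1 lie on the plus strand, and BARD1, BRIP1 and XRCC3 on the minus strand.

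The same window held no E2F letters in BRCA2, which fell, nor in PALB2, ATM and TP53BP1, which did not fall.
BRCA2: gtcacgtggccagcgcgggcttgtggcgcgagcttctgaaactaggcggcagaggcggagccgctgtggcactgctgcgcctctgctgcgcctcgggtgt
PALB2: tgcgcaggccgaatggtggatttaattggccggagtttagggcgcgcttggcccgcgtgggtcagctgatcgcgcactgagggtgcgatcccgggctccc
ATM: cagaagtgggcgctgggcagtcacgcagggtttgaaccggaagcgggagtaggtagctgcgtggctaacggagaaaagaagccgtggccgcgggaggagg
TP53BP1: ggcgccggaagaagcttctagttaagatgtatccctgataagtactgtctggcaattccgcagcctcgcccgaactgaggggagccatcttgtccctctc
These lie at chr13:32315458-32315557 (plus strand) for BRCA2, chr16:23641261-23641360 (minus) for PALB2, chr11:108223017-108223116 (plus) for ATM and chr15:43510591-43510690 (minus) for TP53BP1.

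Over 300 bases, from 250 before to 50 after the start, 19 of the 31 genes with a promoter in the table held E2F letters, or 61.3% (Wilson 95% interval 43.8 to 76.3). A gene was counted if any of its listed promoters held the letters. The share was 11% of all 35116 promoters counted singly, and 21% of the 11112 tested genes with a promoter, by the same rule. EXO1 and BRCA1 each had 2 listed promoters, and the second of EXO1 and the first of BRCA1 held no match. Among the 31, the letters were in 15 of the 17 genes that fell by at least 1 and in 4 of the other 14. BRCA2 and FANCB were the exceptions among the 17; MDC1, FANCF, FANCC and TOPBP1 were the 4 among the 14. In TOPBP1 the match on 1 strand overlapped the match on the other. In the 100-base window the letters were in 16 of the 31, or 51.6%, against 3.92% of all promoters and 7.77% of the tested genes. Of the other strings searched on both strands, the CHR (TTTGAA or TTCGAA) was in 12.9% of the 31 genes, 16.4% of all promoters and 15.7% of the tested genes. CCAAT was in 48.4% of the 31 genes, 34.6% of all promoters and 43.1% of the tested genes. In the 100-base window the CHR was in 3.23% of the 31 and 4.92% of the tested genes, and CCAAT in 29% and 13.2%. Member promoters had a median GC content of 64.3% and all promoters 58.7%, and the part of base composition in these shares was not tested. The match is a description of letters and not of a bound factor.

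**Figure D2:**
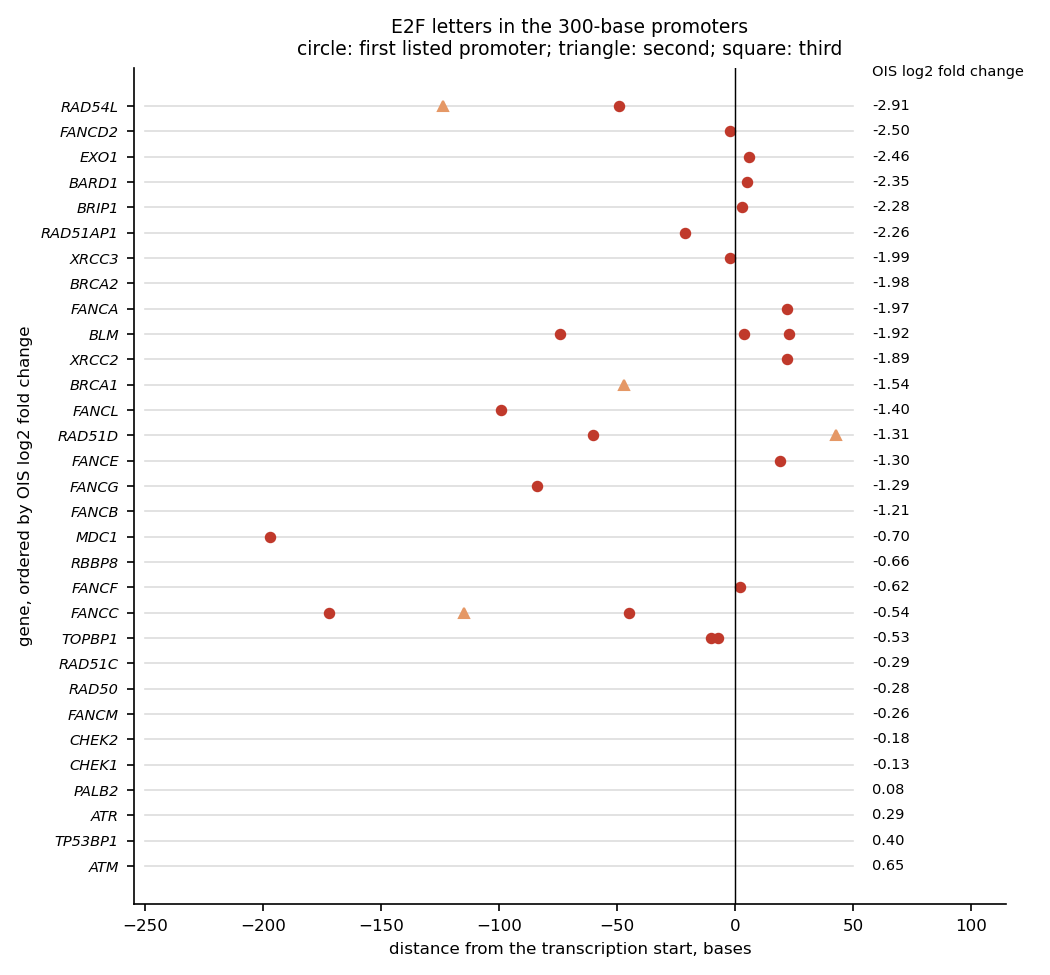
Position of E2F letters in the promoters of 31 genes, ordered from the largest fall to the largest rise in OIS (log2 fold change at the right); the horizontal axis is distance from the transcription start in bases, and a point is the first base of a match. Most matches are in the upper rows, and none of the 9 lowest rows, from RAD51C to ATM, holds one.

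The BRCA complex genes fell except PALB2. BRCA1 and BARD1 form the ubiquitin ligase that acts early at breaks, BRCA2 prepares the resected strand for exchange, and PALB2 links BRCA1 to BRCA2. BARD1 was at 10.4, 14.3 and 16.0 CPM in vector T, A and C and at 2.84, 3.05 and 2.18 in vector/4OHT T, A and B. The vector/4OHT libraries lay far below all vector libraries, with a log2 fold change of -2.35 ± 0.22 (SE; edgeR adjusted p = 2.5e-06). BRCA2 was at 6.21, 12.1 and 18.8 CPM in vector and at 3.88, 3.15 and 2.46 in vector/4OHT, so the vector libraries spread widely while the groups did not overlap (-1.98 ± 0.37; edgeR adjusted p = 0.00077). BRCA1 was at 16.3, 23.5 and 32.5 CPM in vector and 7.93, 8.93 and 8.01 in vector/4OHT (-1.54 ± 0.24; edgeR adjusted p = 0.000198). PALB2 was at 12.7, 16.2 and 19 CPM in vector and 17.9, 17.5 and 15.4 in vector/4OHT. Its groups overlapped, and its log2 fold change of 0.081 had a 95% interval from -0.29 to 0.46.

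All 7 strand exchange genes fell. RAD54L, a motor protein that works during strand invasion, fell furthest of the 36 genes in this fit. It was at 14, 12.1 and 12.7 CPM in vector and 1.34, 1.98 and 1.84 in vector/4OHT, or 7.52-fold lower (log2 -2.91 ± 0.17; edgeR adjusted p = 4.06e-08). RAD51AP1, which helps to pair strands, went from 11, 14.2 and 17.4 CPM to 3.31, 2.34 and 3.17 (log2 -2.26 ± 0.23). XRCC3, which works in a complex with RAD51C, went from 10.5, 8.91 and 8.33 CPM to 2.46, 2.23 and 2.26 (log2 -1.99 ± 0.12). XRCC2, RAD54B and RAD51D fell by 1.89, 1.38 and 1.31 on the log2 scale. These genes did not fall alike: RAD51C was at 14, 15.6 and 13.9 CPM in vector and 11.1, 11.2 and 13.2 in vector/4OHT (log2 -0.29, 95% interval -0.49 to -0.086; edgeR adjusted p = 0.0206). Its interval did not meet that of any other gene of this role. RAD51C kept its call in 11 of 17 alternative analyses, and its adjusted p ran from 0.00642 to 0.318 over them.

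The Fanconi core fell in 7 of 8 genes. FANCA, a scaffold of the core, was at 24.1, 21.7 and 21.1 CPM in vector and 5.36, 5.53 and 6.15 in vector/4OHT (log2 -1.97 ± 0.13; edgeR adjusted p = 1.12e-07). FANCL, its ubiquitin ligase subunit, went from 8.10, 9.35 and 10.5 CPM to 3.63, 3.26 and 3.67 (log2 -1.40 ± 0.14). FANCE, the subunit that contacts FANCD2, went from 11.2, 10.3 and 10.4 CPM to 3.88, 4.75 and 4.32 (log2 -1.30 ± 0.10). In all 3 the groups were far apart and the libraries within a group close. FANCG and FANCB fell by 1.29 and 1.21 on the log2 scale, and FANCF and FANCC by 0.62 and 0.54. FANCM, the DNA translocase that brings the core to chromatin, was at 4.91, 8.77 and 13.3 CPM in vector and 8.55, 8.15 and 5.99 in vector/4OHT. Its vector libraries alone spanned the whole range of the vector/4OHT libraries, and its interval ran from -1.09 to 0.57.

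The substrates of the core and BRIP1 all fell. FANCD2 was at 24.1, 26.8 and 27.4 CPM in vector and 4.37, 4.54 and 4.86 in vector/4OHT, 5.67-fold lower (log2 -2.50 ± 0.098; edgeR adjusted p = 8.59e-10), which was the lowest adjusted p of the 36 genes. Its partner FANCI went from 52.2, 65.5 and 65.4 CPM to 18.1, 16.9 and 16.7 (log2 -1.82 ± 0.15). BRIP1, a helicase that binds BRCA1, went from 14.9, 25.9 and 33.6 CPM to 5.41, 5.42 and 4.5 (log2 -2.28 ± 0.30). The wide vector spread of BRIP1 had vector T lowest and vector C highest, as in BRCA1 and BRCA2.

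Among the resection enzymes and helicases, 4 of 7 genes fell. EXO1, the nuclease of long-range resection, was at 17.8, 19.99 and 19.9 CPM in vector and 3.44, 3.79 and 3.31 in vector/4OHT (log2 -2.46 ± 0.14; edgeR adjusted p = 3.25e-08). BLM, the helicase that unwinds recombination intermediates, went from 9.33, 12.4 and 16.0 CPM to 2.79, 3.90 and 3.33 (log2 -1.92 ± 0.24). RECQL4, another helicase of the same family, went from 17.2, 16.5 and 15.0 CPM to 9.48, 8.75 and 8.84 (log2 -0.85 ± 0.10). RBBP8, which starts resection, fell by 0.66 on the log2 scale (edgeR adjusted p = 0.0321). RBBP8 was called in 9 of 17 alternatives, over which its adjusted p ran from 4.58e-05 to 0.149. The MRN subunits RAD50 and NBN, which hold and process the broken ends, and WRN were not called. RAD50 was at 29.5, 47.0 and 67.9 CPM in vector and 43.2, 44.6 and 31.5 in vector/4OHT, and NBN at 41.9, 67.4 and 86.2 and then 98.2, 104 and 85.9. The groups overlapped in both, narrowly for NBN, whose log2 fold change was 0.56 (95% interval -0.094 to 1.21). WRN had the smallest change of the role, at -0.14 (95% interval -0.59 to 0.31).

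The mediators split. TP53BP1, which shields broken ends from resection, was at 132, 140 and 139 CPM in vector and 179, 185 and 178 in vector/4OHT, and rose by 0.40 ± 0.067 on the log2 scale (edgeR adjusted p = 0.000328). MDC1, the adaptor that binds phosphorylated H2AX, went from 57.1, 45.0 and 46.2 CPM to 30.9, 30.5 and 29.9 (log2 -0.70 ± 0.13; edgeR adjusted p = 0.000837). TOPBP1, the activator of ATR, was at 42.5, 63.7 and 72.0 CPM in vector and 38.9, 46.0 and 38.7 in vector/4OHT. TOPBP1 was not called (log2 -0.53; edgeR adjusted p = 0.0663), with vector T alone inside the vector/4OHT range; without vector T it was called at -0.72 (edgeR adjusted p = 0.0140), and over its 17 alternatives the adjusted p ran from 0.000184 to 0.226.

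None of the 4 checkpoint kinases was called, against 50.9% of all genes tested, although each was called in at least 1 of 17 alternatives. ATM, which responds to double-strand breaks, was at 30.9, 53.1 and 64.7 CPM in vector and 85.3, 82.0 and 66.2 in vector/4OHT. Every vector/4OHT library was above every vector library, by a narrow margin at vector C, and the log2 fold change was 0.65 (95% interval -0.018 to 1.32; edgeR adjusted p = 0.096). ATR, which responds to stalled forks, was at 22.5, 42.8 and 53.2 CPM and then 48.5, 51.9 and 44.6 (log2 0.29, 95% interval -0.39 to 0.97), and was called higher with the replicate block (edgeR adjusted p = 0.0307; range over alternatives 0.0307 to 0.979). CHEK1, the effector of ATR, was at 27, 36.0 and 36.8 CPM and then 29.2, 31.3 and 30.4 (log2 -0.13, 95% interval -0.46 to 0.19), and was called lower with the GC and length offset at -0.19 (edgeR adjusted p = 0.0411; range 0.0411 to 0.838). CHEK2, the effector of ATM, was at 8.71, 8.06 and 7.08 CPM and then 6.61, 7.30 and 7.20 (log2 -0.18, 95% interval -0.39 to 0.034), and was called lower with the replicate block at -0.28 (edgeR adjusted p = 0.0433; range 0.0433 to 0.617). For CHEK1 and CHEK2 the intervals leave out a fall of the size seen in RAD54L, FANCD2 or BRCA1, and for ATM and ATR they reach no lower than -0.018 and -0.39.

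**Figure D3:**
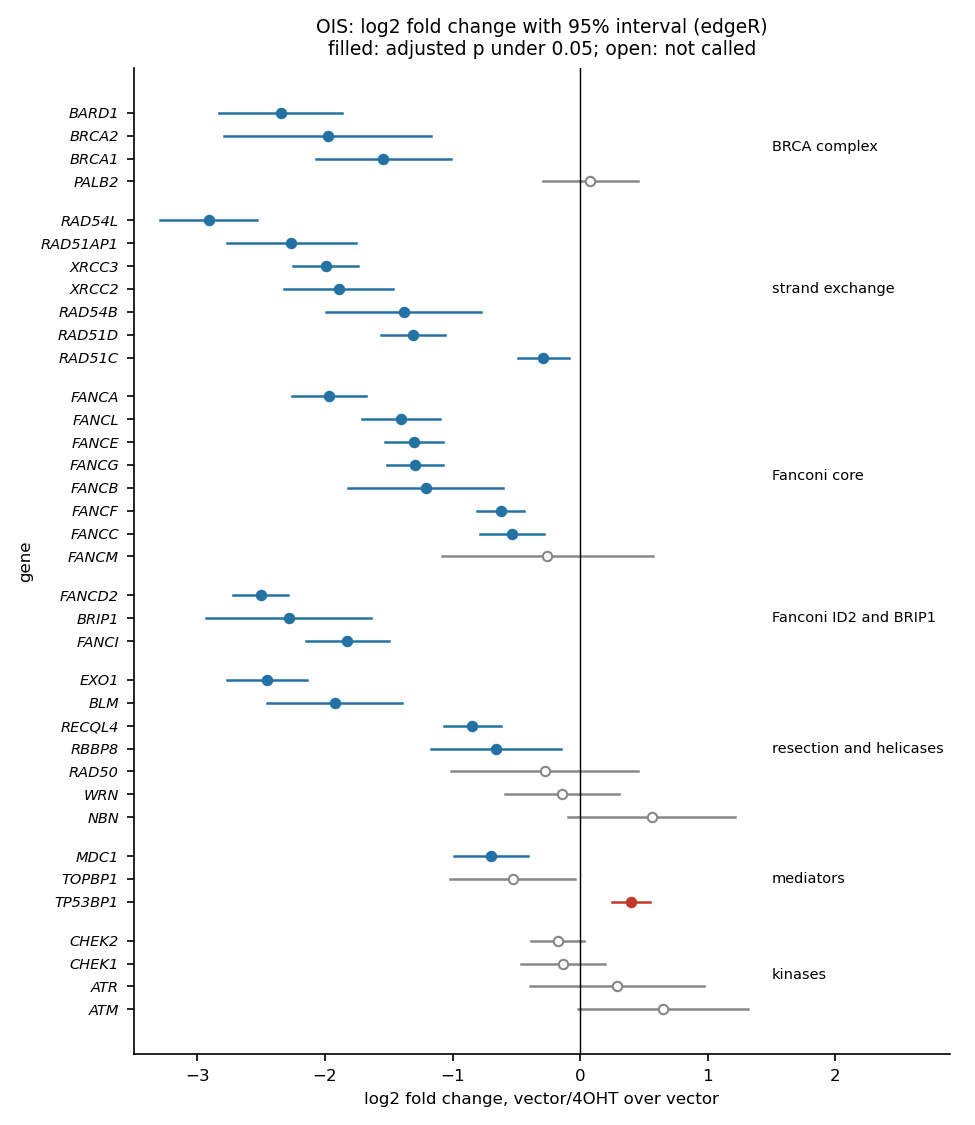
log2 fold change of each of the 36 genes in vector/4OHT over vector, by role, with 95% intervals from edgeR; filled points passed an adjusted p of 0.05 and open points did not. The strand exchange and FANCD2, BRIP1 and FANCI points all lie left of 0 with their intervals, and the 4 kinases are all open.

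With an offset for transcript GC content and length together in each library, 31 of the 36 genes were called, 28 lower and 3 higher, while 28.7% of all genes were then called lower and 34.5% higher. The 3 higher were TP53BP1, ATM (log2 0.57; edgeR adjusted p = 0.00452) and NBN (log2 0.44; edgeR adjusted p = 0.00635). ATM was called in 5 of 17 alternatives, with adjusted p from 0.00452 to 0.408, and NBN in 3, from 0.00635 to 0.43. The median moved to -1.16 with the offset and to -1.04 without vector C, so it stayed far from that of all genes.

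The genes of the pathway that were not in the list of 36 were counted in 3 further lists. Of 34 other recombination and Fanconi genes, 20 fell and 1 rose, where 26.1% and 24.8% of all genes tested did so. DMC1, the meiotic recombinase, RMI2, a subunit of the BLM complex, and EME1, a subunit of a junction-cutting nuclease, fell by 2.49, 2.01 and 1.99 on the log2 scale, DMC1 from a level under 1 CPM. HELQ, a repair helicase, was the gene that rose, by 0.59. Of 20 checkpoint and chromatin partners, 9 fell and 1 rose: the 3 largest falls were in CLSPN, which brings CHEK1 to ATR, TIMELESS, a fork protection protein, and H2AX, the histone marked at breaks, at -2.60, -1.56 and -1.03, and HUS1, a subunit of the checkpoint clamp, rose by 0.43. Of 12 end joining genes tested, 3 fell, or 25%, which is near the 26.1% of all genes tested. The count was 6 lower and 2 higher with the GC and length offset, where 28.7% of all genes were called lower and 34.5% higher. With the replicate block it was 4 lower and 1 higher, and the share of all genes called with the block was not computed. The 3 that fell in the main fit were POLQ, the polymerase of microhomology joining, at -2.51, PAXX at -0.42 and PRKDC, the catalytic subunit of DNA-PK, at -0.33.

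None of the 36 genes passed the test in the XPO7 knockdown groups. XPO7 itself was at 26.4, 28.7 and 27.9 CPM in shXPO7_3/4OHT T, A and B and at 50.8, 54.0 and 51.8 in shXPO7_5/4OHT, against 127, 144 and 139 in vector/4OHT (log2 -2.30 and -1.39, both called). At an adjusted p under 0.05 the count was 0 of 36 in both comparisons (edgeR), while 0.124% of all genes were called with shXPO7_3 and 0.589% with shXPO7_5. At an unadjusted p under 0.05, 2 were higher and 0 lower with shXPO7_3, where 3.54% and 2.87% of all genes passed in those directions, and 5 were higher and 3 lower with shXPO7_5, where 12.3% and 9.28% of all genes passed in the same directions. DESeq2 called 0 and 2, and the share of all genes it called was not computed. The comparisons share the vector/4OHT libraries.

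With shXPO7_3 the 2 genes were FANCE and EXO1. FANCE was at 6.09, 5.04 and 5.06 CPM in shXPO7_3/4OHT against 3.88, 4.75 and 4.32 in vector/4OHT (log2 0.32 ± 0.11; edgeR adjusted p = 0.479). EXO1 was at 3.92, 5.37 and 4.45 CPM against 3.44, 3.79 and 3.31 (log2 0.38 ± 0.15; edgeR adjusted p = 0.605). Neither gene's groups overlapped, which held in the same direction for 1140 of all 15284 genes tested. In the lower direction RAD51C and CHEK2 did not overlap, as did 1093 of all genes. The changes of FANCE and EXO1 were small beside those of OIS. The median over the 36 genes was 0.083, and 26 of them were above 0, against 48.9% of all genes. The libraries differed in this: shXPO7_3/4OHT T had 13 of the 36 above the vector/4OHT mean, and A and B had 30 and 28. Without all B libraries the median was -0.0036. The 95% intervals of 35 genes lay within 1 on either side of 0, the exception being BRCA2.

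With shXPO7_5 the 5 genes with the smallest unadjusted p were FANCE, FANCA, XRCC3, FANCG and CHEK2. FANCE was at 6.30, 5.80 and 6.03 CPM in shXPO7_5/4OHT, above every vector/4OHT library (log2 0.49 ± 0.11; edgeR adjusted p = 0.0631). FANCA was at 8.96, 6.52 and 8.60 CPM against 5.36, 5.53 and 6.15 (log2 0.50 ± 0.13; edgeR adjusted p = 0.107). These 2 were called by DESeq2, at adjusted p of 0.0213 and 0.0341, and FANCA with the GC offset at 0.38 (edgeR adjusted p = 0.0371). With that offset 2.82% of all genes were called. XRCC3 and FANCG had log2 fold changes of 0.44 and 0.34, and CHEK2 of -0.27. In 7 of the 36 genes every shXPO7_5/4OHT library lay above every vector/4OHT library, and in 2 below. The same held for 2168 and 1924 of all 15284 genes tested. FANCE and FANCA were at 56.9% and 36.0% of their vector means, against 40.6% and 25.5% in vector/4OHT.

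With shXPO7_5, ATM and RAD50 differed between the libraries of the group. ATM was at 38.3, 75.2 and 36.4 CPM in shXPO7_5/4OHT T, A and B, and RAD50 at 19.7, 37.0 and 17.4. In both genes T and B were low and A was within or near the vector/4OHT range. Over the 36 genes the log2 fold change rose with transcript GC content (Spearman rho 0.842, against -0.0134 with shXPO7_3), and over all genes tested the value was 0.674. The median of -0.16 became 0.050 with the GC and length offset. Without shXPO7_5/4OHT A, 10 genes were called: RAD50, ATM, ATR, NBN, RBBP8, TOPBP1 and WRN lower, and FANCG, FANCE and FANCA higher. Without any other single library the count was 0. The share of all genes called without shXPO7_5/4OHT A was not computed, so the 10 cannot be set beside a background. Over all genes tested, the level relative to vector/4OHT rose with transcript GC content in T and B, the libraries kept there. The rho was 0.626 in T and 0.792 in B, and 0.126 in A.

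**Figure D4:**
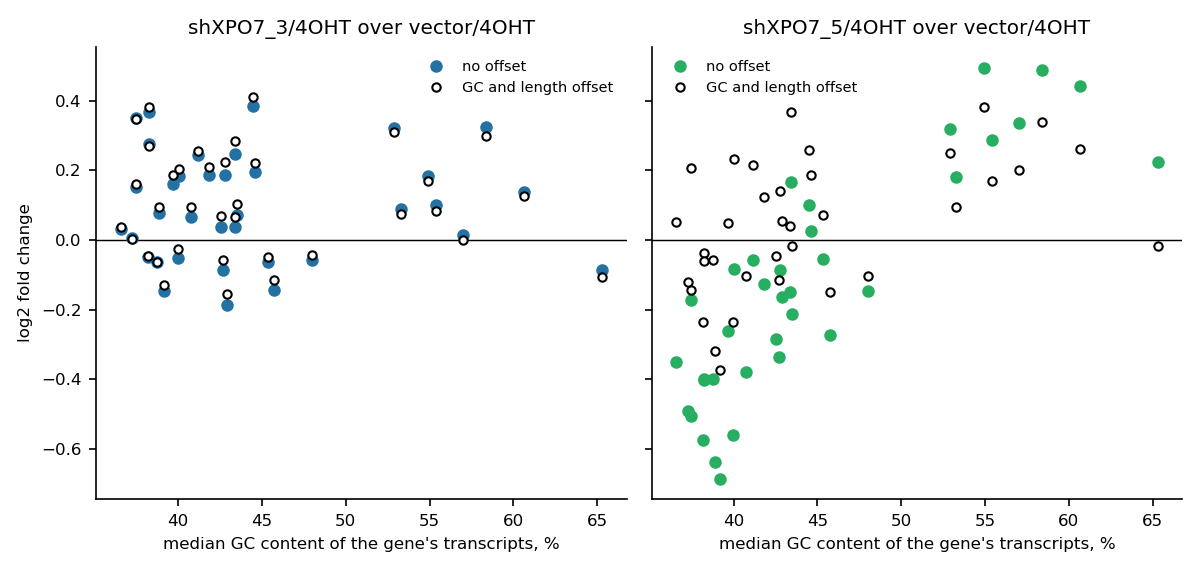
log2 fold change of the 36 genes in each shRNA group over vector/4OHT against the median GC content of their transcripts in percent; filled points are without and open points with an offset for GC content and length. With shXPO7_5 the filled points climb from -0.69 for RAD50 to 0.50 for FANCA and 28 of the 36 open points lie closer to 0 than the filled ones, while with shXPO7_3 the filled and open points nearly coincide.

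Compared directly, the shRNAs gave no called gene among the 36, where 2 of all genes were called (0.0131%). At an unadjusted p under 0.05, 4 were higher and 2 lower in shXPO7_5/4OHT than in shXPO7_3/4OHT, against 6.96% and 4.94% of all genes. The 5 with the smallest p were FANCG, RECQL4, RAD51AP1, XRCC3 and FANCA, at 0.32, 0.31, -0.68, 0.30 and 0.31 on the log2 scale, each with an adjusted p of 0.388 (edgeR). RAD51AP1 was at 2.52, 3.77 and 4.36 CPM with shXPO7_3 and 2.19, 2.78 and 1.77 with shXPO7_5, and those groups overlapped. Here too the log2 fold change rose with GC content over the 36 genes (Spearman rho 0.913), and the median of -0.28 became -0.061 with the offset.

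Relative to the vector mean, the median level over all 36 genes was 42.2% in vector/4OHT, 49.97% in shXPO7_3/4OHT and 50.2% in shXPO7_5/4OHT. This median ranks the genes anew in each group and need not follow the change gene by gene. Against vector/4OHT, 26 of the 36 genes were higher with shXPO7_3 and 25 were lower with shXPO7_5. Of all 15284 genes tested, 7478 and 7538 were so. The median log2 fold changes of the 36 were 0.083 and -0.16, and 0.095 and 0.050 with the GC and length offset. Under 50% of the vector mean lay 19 genes in vector/4OHT and 18 in each knockdown group. Over the 25 genes chosen because they fell in vector/4OHT the median level was 34.4%, 35.2% and 34.0%. The knockdown groups were not tested against vector. FANCD2, for example, was at 5.49, 5.49 and 4.85 CPM with shXPO7_3 and 4.35, 5.16 and 4.53 with shXPO7_5. Its difference from vector/4OHT had intervals from -0.022 to 0.41 and from -0.20 to 0.25. RAD54L was at 2.80, 1.78 and 1.89 CPM and at 2.16, 1.99 and 2.27, with intervals from -0.084 to 0.73 and from -0.096 to 0.73. MKI67 was not called in either group. It was at 36.4, 36.5 and 34.7 CPM and at 35.3, 38.9 and 32.2, above the 25.5 to 30.3 of vector/4OHT and far below the 250 to 280 of vector. Of the 7 proliferation markers, 6 were higher and 1 lower with shXPO7_3, and 4 higher and 3 lower with shXPO7_5, none called. Every library lay above every vector/4OHT library in 3 of the 7 with each shRNA, and below in 0 and 1. Of all 15284 genes, 1140 and 2168 lay above in this way, and 1093 and 1924 below.

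**Figure D5:**
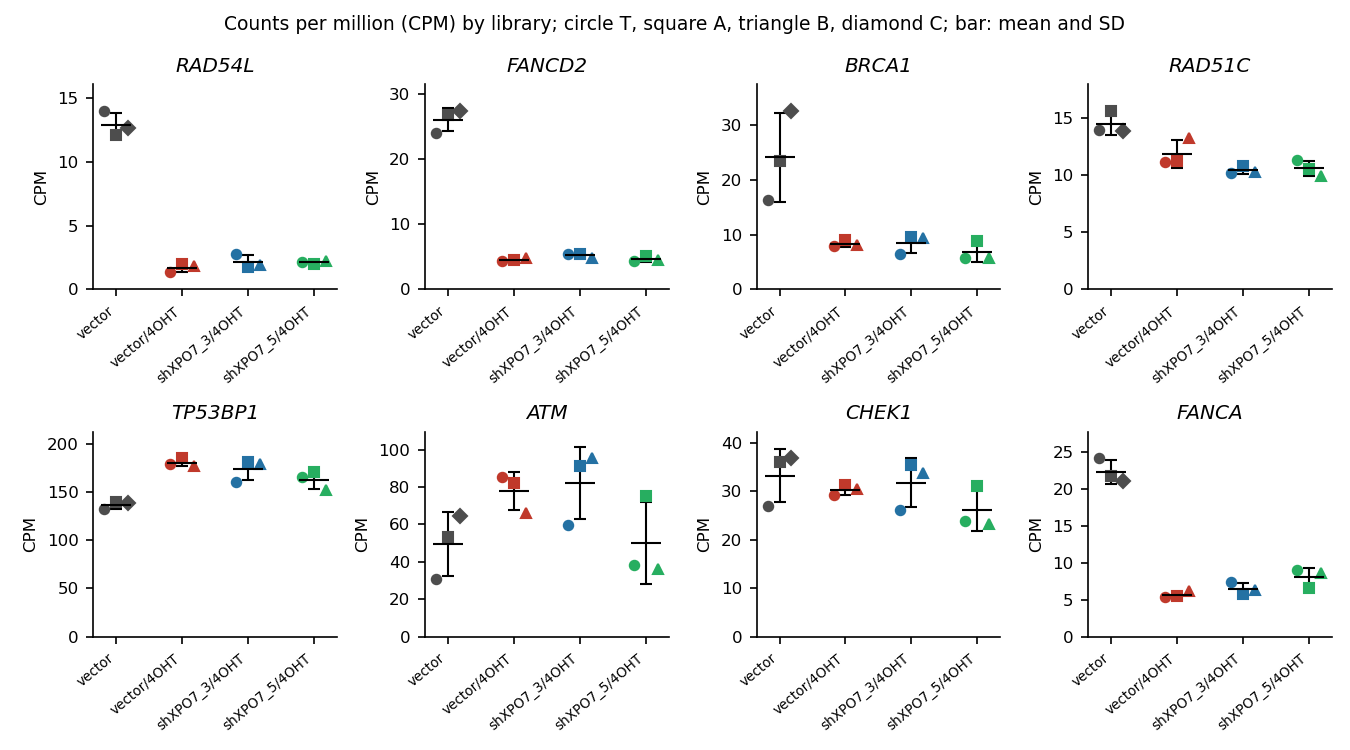
CPM of 8 genes in the 12 libraries (symbols mark the replicate letter), with the mean and SD of each group of 3; every vertical axis starts at 0. RAD54L, FANCD2, BRCA1 and FANCA are low in all 9 induced libraries, TP53BP1 is higher in them, RAD51C is slightly lower, and ATM and CHEK1 vary with the library.

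Some of these genes share sequence or position with others. Exons of 6 members (RAD54B, CHEK1, RAD51D, BRCA1, RBBP8 and RAD50) overlap another gene on the same strand in GENCODE 29, such as FSBP for RAD54B and STT3A for CHEK1, and those of 20 members overlap a gene on the opposite strand, KLC1 for XRCC3 and ZNF276 for FANCA. CHEK2, FANCD2, RAD51AP1 and RBBP8 have annotated pseudogenes. No source used here states the strand or multi-mapping settings of the counting, and values of these genes are less certain.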

How the data were processed

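RNA was sequenced from stranded mRNA libraries. Per the labels' processing notes the authors used CASAVA 1.8.4, TopHat2 2.0.11 and featureCounts 1.18.0 on hg19 (GRCh37), and deposited raw read counts per Ensembl gene; 92 spike-in entries were left out. Counts were matched by Ensembl ID to symbols, transcript GC content and length from GENCODE 29. In edgeR 4.0.16, filterByExpr left 15284 genes, factors were TMM, and 1 quasi-likelihood fit of all 12 libraries gave 4 comparisons, with Benjamini-Hochberg adjustment and a threshold of 0.05. The text of the paper read here names no test for these counts, and its supplemental methods were not used here. Replicate pairs differed by more than sampling noise (at least 4.57 chi-square per gene), so all were kept. Alternatives were other scalings, filters, DESeq2 1.42.0, a replicate block, a GC offset and leaving out libraries. The procedure was also run on simulated counts with the same spread for every gene. That setting is simpler than these libraries, so the run does not show the error rate here. Members and gene lists were chosen with earlier results of these data known. Genes named were all members in OIS, those with the smallest p in the shRNA comparisons, and up to 3 called genes per other list and direction. Promoters came from RefSeq (GRCh38.p14) for 31 of 36 members. The values of 1 gene of the other pathway lists are not reported here.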

Additional observations from a re-analysis of the deposited data

Results flagged for a closer look

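XPO7, the targeted gene, was the item that met a rule for a closer look: its level differed between the knockdown groups by the direct test, at 0.92 on the log2 scale higher in shXPO7_5/4OHT than in shXPO7_3/4OHT (95% interval 0.76 to 1.07; edgeR adjusted p = 0.000387). No group held enough libraries for a test of single outlying libraries.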

How the results depend on the processing

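In OIS, 24 of the 36 genes were called in all 17 alternatives, 9 in some and 3 in none (PALB2, FANCM and RAD50), and the count called ran from 24 to 31, its lowest value of 24 being that without vector A, without vector/4OHT T, without vector/4OHT A or without both A libraries. The median log2 fold change in OIS was -1.345 with upper-quartile factors, which shift the median of all genes to -0.105 and turn its split of calls from 26.1% lower and 24.8% higher to 30.3% and 18.8%, -1.164 with the GC and length offset, and between -1.262 and -1.041 without single libraries or all libraries of a letter. With the replicate letter as a block it was -0.9826 and 29 genes were called (25 lower, 4 higher), and the block called 0 of the 36 in the knockdown comparisons. The share of all genes called with the block was not computed, so the 29 cannot be set beside a background. The labels do not say what the letters mean, and the main fit did not pair by them. Of 15 same-letter pairs 8 correlated above 0.1 in their deviations from the group means, from -0.443 to 0.707. Pairs of other letters ran from -0.761 to 0.721. These values do not settle if the letters pair the libraries. Vector shares only T and A with the other groups, so the block estimates OIS without vector C.

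In shXPO7_5, 1 gene was called with the GC offset, where 2.82% of all genes were called, against 0.589% in the main fit. DESeq2 called 2, and between 0 and 10 were called without single libraries. The shares of all genes called by DESeq2 and without single libraries were not computed. The median of the shRNAs compared was -0.0606 with the GC offset. The shXPO7_3 median was -0.003628 without all B libraries. XPO7 between the shRNAs was not called with only those groups in the fit (0.9073, adjusted p = 0.114), nor without replicate A (0.906) or B (0.9329); its range without libraries was 0.8911 to 0.9421. Over 100 bases the CHR share was 3.23% and the CCAAT share 29%, against 4.92% and 13.2% of the tested genes with a promoter. Signs turned in OIS genes that were not called: with the block, FANCM to 0.28, RAD50 to 0.17 and WRN to 0.086; with upper-quartile factors, PALB2 to -0.013; and without libraries, FANCM from -0.67 to 0.13, PALB2 from -0.12 to 0.2249, ATR from -0.015 to 0.5638, RAD50 from -0.62 to 0.054 and WRN from -0.36 to 0.055. End joining calls ran from 2 to 8 against 3, the highest with the GC offset, where 63.2% of all genes were called. Leaving out all libraries of a letter was added after seeing the data. With 3 libraries a group, a gene that was not called is not shown to be unchanged.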
